A study of Macaca mulatta with 9 samples.

Results

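NADK2, CSAD, ARHGEF12, ASPH, DMAC1 and FAT1 were selected on measured values of the arrays described here, as genes with a higher level in old than in young rhesus monkey ovaries. The set holds every probe set that carries 1 of these 6 symbols in the array annotation, which gave 20 probe sets of 6 genes. The array names 14132 genes through 24956 probe sets with a single symbol, and 52766 probe sets were tested with or without a symbol. Ovaries of 9 Macaca mulatta females were measured on 9 one-colour expression arrays, with 1 monkey per array and 3 per age group. Ages ran from 3 to 4 years in the young group, whose members were unbred but cycling, from 7 to 8 years in the middle-aged group and from 18 to 19 years in the old group. Fertility was retained in the middle-aged group and gone in the old one. The labels name no treatment, and the groups differed in age. By the paper, young and middle-aged ovaries were taken near proestrus, judged from breeding records, and no cycle stage is given for the old group. Age and cycle stage therefore cannot be told apart in comparisons with old ovaries. RNA came from pieces of ovary that hold many cell types, so fewer cells of a type and less RNA per cell cannot be told apart in any value below.

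The 6 genes belong to separate pathways. NADK2 is the mitochondrial NAD kinase, which makes the NADP that mitochondria need for NADPH-dependent synthesis and redox defence, and CSAD is the decarboxylase that makes hypotaurine, the precursor of taurine, from cysteine sulfinate. ARHGEF12, also called LARG, is an exchange factor that activates RhoA downstream of G12/13-coupled receptors and plexins. ASPH is an endoplasmic reticulum hydroxylase of EGF-like domains, and its locus also encodes the calcium store proteins junctin and junctate. DMAC1 is an assembly factor of the distal part of the membrane arm of mitochondrial complex I, and FAT1 is a giant atypical cadherin that acts upstream of Hippo signalling.

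Each of the 6 genes had exactly 1 probe set called higher in old than in young ovaries. Of the genes with more than 1 probe set, only NADK2 had all of them in the same direction. CSAD has 1 probe set, so agreement could not be seen for it. A call needed a Benjamini-Hochberg adjusted p under 0.05 in limma over all probe sets and a fold of at least 1.5. Of the 20 probe sets, 6 were called higher and 0 lower, beside 0.0265% higher and 0.129% lower among all probe sets. The genes were chosen on this contrast, so nothing is read from these counts. The estimate was positive for all 3 probe sets of NADK2, the single one of CSAD, 3 of 4 of ARHGEF12, 5 of 6 of ASPH, 2 of 4 of DMAC1 and 1 of 2 of FAT1. That made 15 of 20, where 52.2% of all probe sets had a positive estimate. In 11 of the 20 the 3 old arrays lay above the 3 young arrays, which held for 7.38% of all probe sets, and in 8 of the 20 the old arrays lay above all other 6 arrays, which held for 2.45%.

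**Figure D1:**
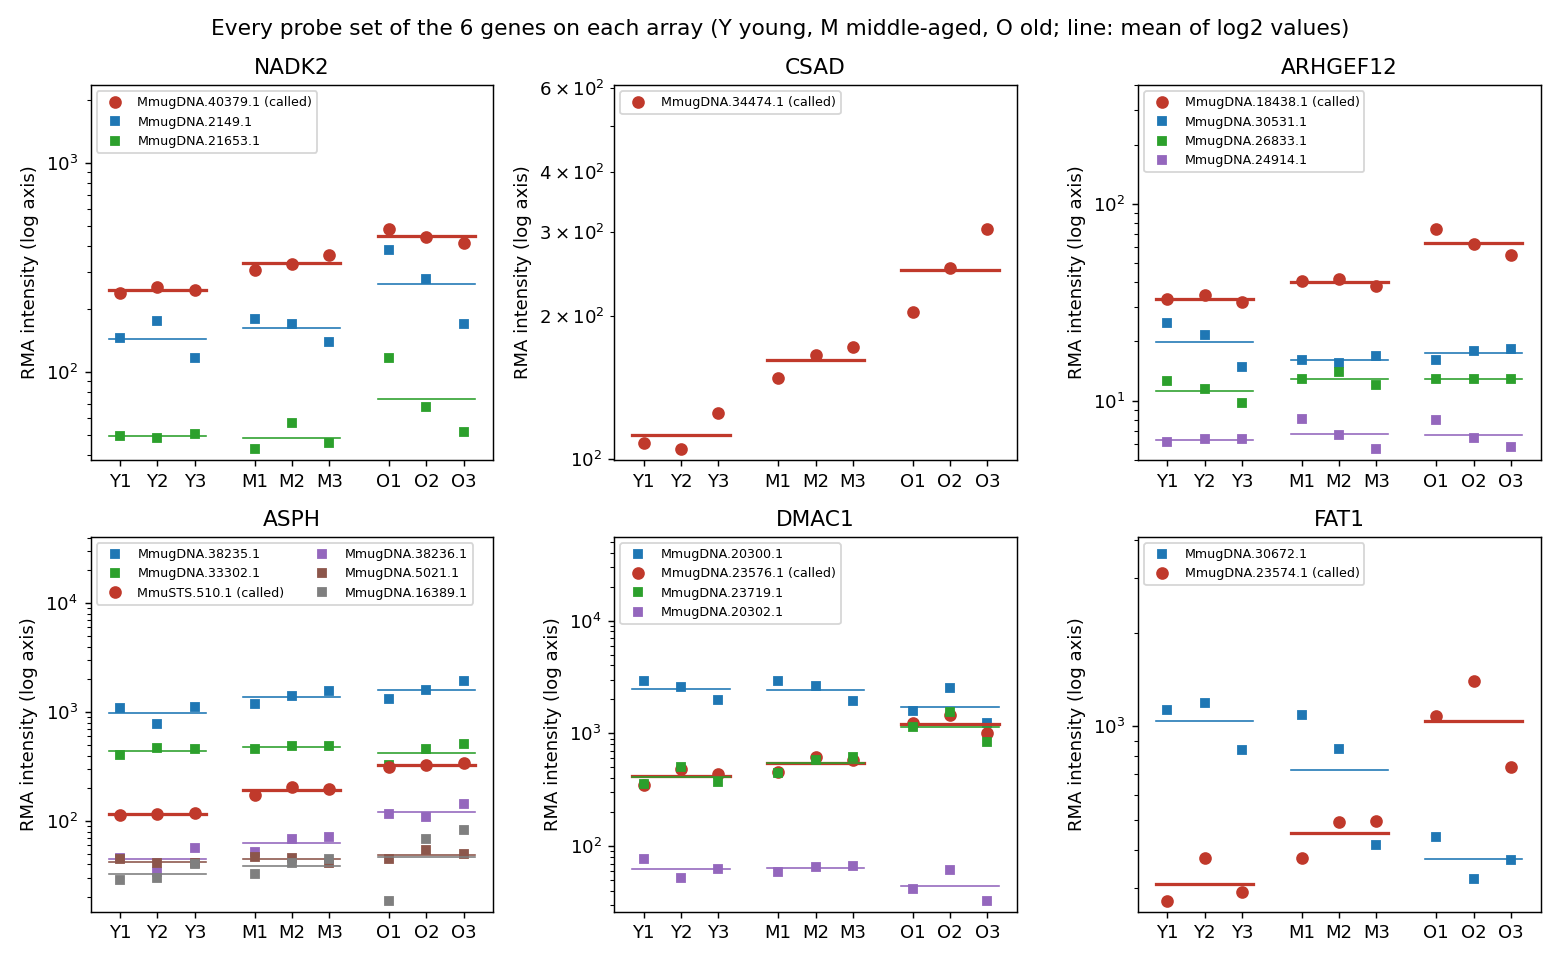
Intensity of all 20 probe sets of the 6 genes on each of the 9 arrays, on a log axis, with 1 panel per gene. Points are arrays (Y young, M middle-aged, O old), short lines are group means of log2 values, and the called probe set of each gene is in red. DMAC1 and FAT1 hold probe sets that are higher and probe sets that are lower in old ovaries.

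The NADK2 probe set that was called, MmugDNA.40379.1.S1_at, is also the brightest of the gene. It read 237, 254 and 247 in young ovaries, 307, 329 and 363 in middle-aged ovaries and 483, 444 and 413 in old ovaries. The 3 age groups did not overlap, and the old ovaries were higher than the young by 0.86 (SE 0.11) on the log2 scale, a fold of 1.81. A second NADK2 probe set, MmugDNA.2149.1.S1_at, read 145, 175 and 116 in young, 178, 170.2 and 139 in middle-aged and 384, 279 and 169 in old ovaries. Its difference between old and young was as large, 0.87 (SE 0.29), but old ovary 3 lay among the younger arrays. The dimmest, MmugDNA.21653.1.S1_at, read 116, 68.1 and 51.7 in old ovaries against 48.3 to 50.7 in young and 42.8 to 56.7 in middle-aged ovaries, a difference of 0.58 (SE 0.27). For MmugDNA.21653.1.S1_at the NADK2 difference was 0.26 without old ovary 1 and 0.85 without old ovary 3. Each pair of NADK2 probe sets correlated positively over the 9 arrays, with Pearson r from 0.66 to 0.87. The order of the old arrays was the same in all 3, with old ovary 1 highest and old ovary 3 lowest.

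CSAD, the taurine-pathway enzyme, has 1 probe set, MmugDNA.34474.1.S1_at, so no other probe set can be set against it. It read 108, 105 and 125 in young, 148, 166 and 172 in middle-aged and 204, 252 and 304 in old ovaries. The age groups did not overlap. Old ovaries were higher than young ovaries by 1.15 (SE 0.16), a fold of 2.22, and here old ovary 3 was the highest array, the reverse of NADK2. CSAD and ZNF740 overlap in the RefSeq annotation of the rhesus genome, and which of their transcripts the probes match was not tested.

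ARHGEF12, the RhoA exchange factor, had 4 probe sets, of which the brightest was called. MmugDNA.18438.1.S1_at read 32.7, 34.5 and 31.5 in young, 40.4, 41.6 and 38.1 in middle-aged and 74.5, 62.5 and 55.1 in old ovaries. Again no age group overlapped another, and old exceeded young ovaries by 0.95 (SE 0.13), a fold of 1.93. The remaining 3 probe sets, MmugDNA.30531.1.S1_at, MmugDNA.26833.1.S1_at and MmugDNA.24914.1.S1_at, lay below the median of all probe sets on all 9 arrays. Their differences between old and young were -0.20 (SE 0.18, 95% interval -0.60 to 0.21), 0.20 (SE 0.12) and 0.08 (SE 0.16). These dim probe sets did not repeat the size of the difference, and their r against the called one was -0.26, 0.51 and 0.34. In MmugDNA.26833.1.S1_at the old arrays, at 12.8 to 12.9, lay narrowly above the young arrays, at 9.7 to 12.5. Detection calls were not used here, so whether these dim probe sets measured the transcript at all is not known.

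ASPH, the hydroxylase of the endoplasmic reticulum, had the largest difference relative to its standard error among the 20 probe sets. Its called probe set, MmuSTS.510.1.S1_at, read 113, 115 and 119 in young, 172, 208 and 197 in middle-aged and 311, 324 and 341 in old ovaries. The difference of old from young was 1.49 (SE 0.11), a fold of 2.81. A second probe set, MmugDNA.38236.1.S1_at, read 45.8, 34.3 and 56.1 in young, 52.4, 68.8 and 71.0 in middle-aged and 116, 109.7 and 143 in old ovaries. It differed by a near-equal 1.46 (SE 0.21) and followed the called one at r = 0.95. The brightest ASPH probe set, MmugDNA.38235.1.S1_at, read 1097, 776 and 1116 in young, 1197, 1415 and 1564 in middle-aged and 1317, 1585 and 1944 in old ovaries, a smaller difference of 0.70 (SE 0.20). In this probe set all old arrays stood above all young ones, whereas the old and the middle-aged arrays overlapped.

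In the other 3 ASPH probe sets the old and young arrays overlapped. In the order given below, they correlated with the called one at r of -0.07, 0.72 and 0.42. MmugDNA.33302.1.S1_at differed little across ages, at 406, 465 and 459.9 in young and 328, 462 and 509 in old ovaries (difference -0.06, 95% interval -0.43 to 0.32). MmugDNA.5021.1.S1_at differed by 0.22 (SE 0.11). MmugDNA.16389.1.S1_at read 18.6, 68.8 and 82.4 in old ovaries, so that its lowest and its highest arrays were both old, and its difference was 0.54 (SE 0.50). ASPH thus held 3 probe sets with old above young on every array and 3 without. The locus makes several proteins from alternative transcripts, and which transcript each probe set measures was not tested.

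The 4 probe sets of DMAC1, the complex I assembly factor, were split. The called probe set, MmugDNA.23576.1.S1_at, read 346, 488 and 435 in young, 452, 617 and 581 in middle-aged and 1225, 1469 and 1016 in old ovaries, a difference of 1.55 (SE 0.19) and a fold of 2.92. Its companion, MmugDNA.23719.1.S1_at, read 359, 505 and 375 in young, 448, 577 and 624 in middle-aged and 1150.4, 1562 and 832 in old ovaries, a difference of 1.49 (SE 0.25). In both, the 3 old arrays stood above the other 6. The brightest DMAC1 probe set, MmugDNA.20300.1.S1_at, went the other way, at 2929, 2574 and 1979 in young, 2902, 2610.2 and 1927 in middle-aged and 1580.2, 2522 and 1228 in old ovaries. Its difference of old from young was -0.54 (95% interval -1.18 to 0.11), and its old and young arrays overlapped. The dimmest, MmugDNA.20302.1.S1_at, gave 42.2, 61.3 and 33.0 in old ovaries against 52.2 to 77.4 in young ovaries, a difference of -0.52 (95% interval -1.05 to 0.01). Over the 9 arrays the pair that was higher in old ovaries correlated at r = 0.98 and the pair that was lower at r = 0.81, and every correlation between a probe set of one pair and one of the other was negative, from -0.58 to -0.41. With the mean of each age group subtracted, these correlations were positive, from 0.21 to 0.50.

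The 2 probe sets of FAT1, the atypical cadherin, were further apart. Its called probe set, MmugDNA.23574.1.S1_at, read 274, 376 and 292 in young, 377, 491 and 497 in middle-aged and 1078, 1403 and 739 in old ovaries. The difference of 1.74 (SE 0.24), a fold of 3.34, was the largest among the 20 probe sets. The brightest FAT1 probe set, MmugDNA.30672.1.S1_at, read 1126, 1191 and 839 in young, 1089, 842 and 413 in middle-aged and 441, 322 and 370.0 in old ovaries. Here all 3 old arrays were below all 3 young arrays, with a difference of -1.47 (SE 0.33), a fold of 0.36. It was not called (adjusted p = 0.134 in limma). The paper lists LOC702800, the Entrez number of both probe sets, as differentially expressed in each direction, at folds that match these 2 probe sets. The probe sets with the FAT1 symbol thus gave opposite directions, the called one in the direction for which the gene was chosen. They correlated at r = -0.84 over the 9 arrays and at r = -0.27 around the age group means. In the RefSeq annotation FAT1 overlaps the protein-coding gene LOC144341041 and the long noncoding RNAs LOC114678459 and LOC144340894. Which of these transcripts the probes match was not tested.

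**Figure D2:**
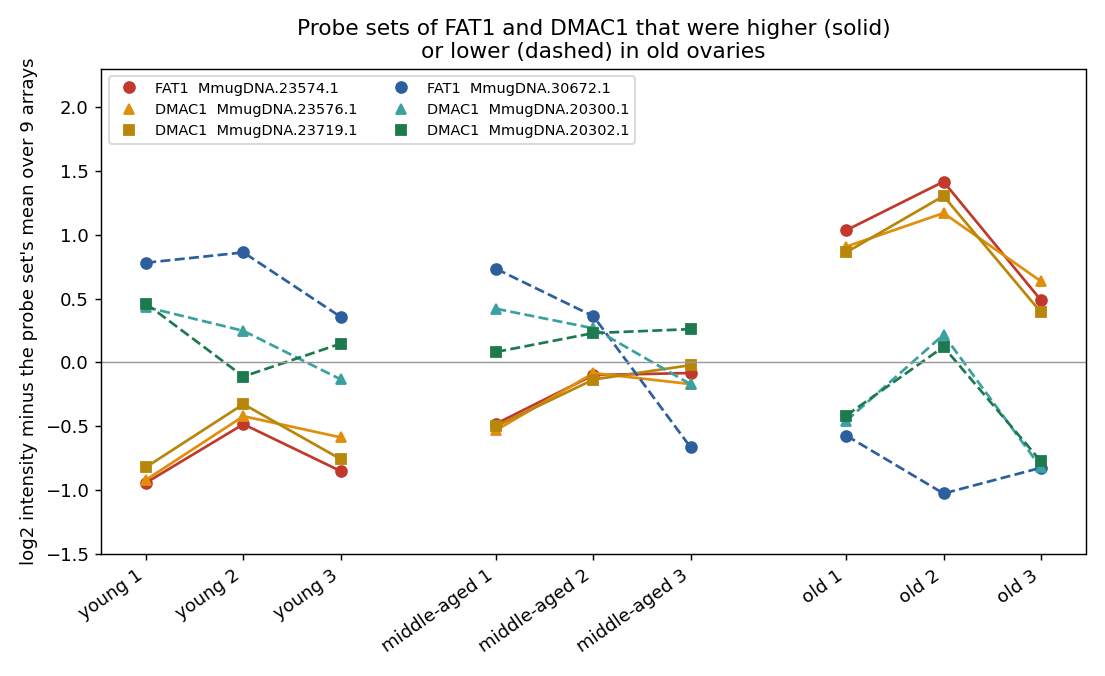
Log2 intensity of the FAT1 and DMAC1 probe sets on each of the 9 arrays, minus the mean of that probe set over the 9 arrays (solid lines, higher in old ovaries; dashed lines, lower). Lines join the 3 arrays of an age group to mark a probe set and imply no order. The FAT1 probe set that is higher in old ovaries moves with the DMAC1 probe sets that are higher in old ovaries, array by array, and not with the brighter FAT1 probe set.

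The probe sets that were higher in old ovaries crossed the gene boundary. FAT1 MmugDNA.23574.1.S1_at correlated with DMAC1 MmugDNA.23719.1.S1_at at r = 0.997 over the 9 arrays and with DMAC1 MmugDNA.23576.1.S1_at at r = 0.988. After the mean of each age group was subtracted, these were still 0.992 and 0.915. Among the 52765 other probe sets of the array, the 2 most like the FAT1 one were these DMAC1 probe sets, and the nearest neighbour of each of the 2 DMAC1 probe sets was the FAT1 one. FAT1 and DMAC1 lie on different chromosomes in the RefSeq annotation, and whether the probes of these 3 sets match a shared sequence was not tested. The points are 9 arrays that share their age groups, so these correlations are descriptions.

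**Figure D3:**
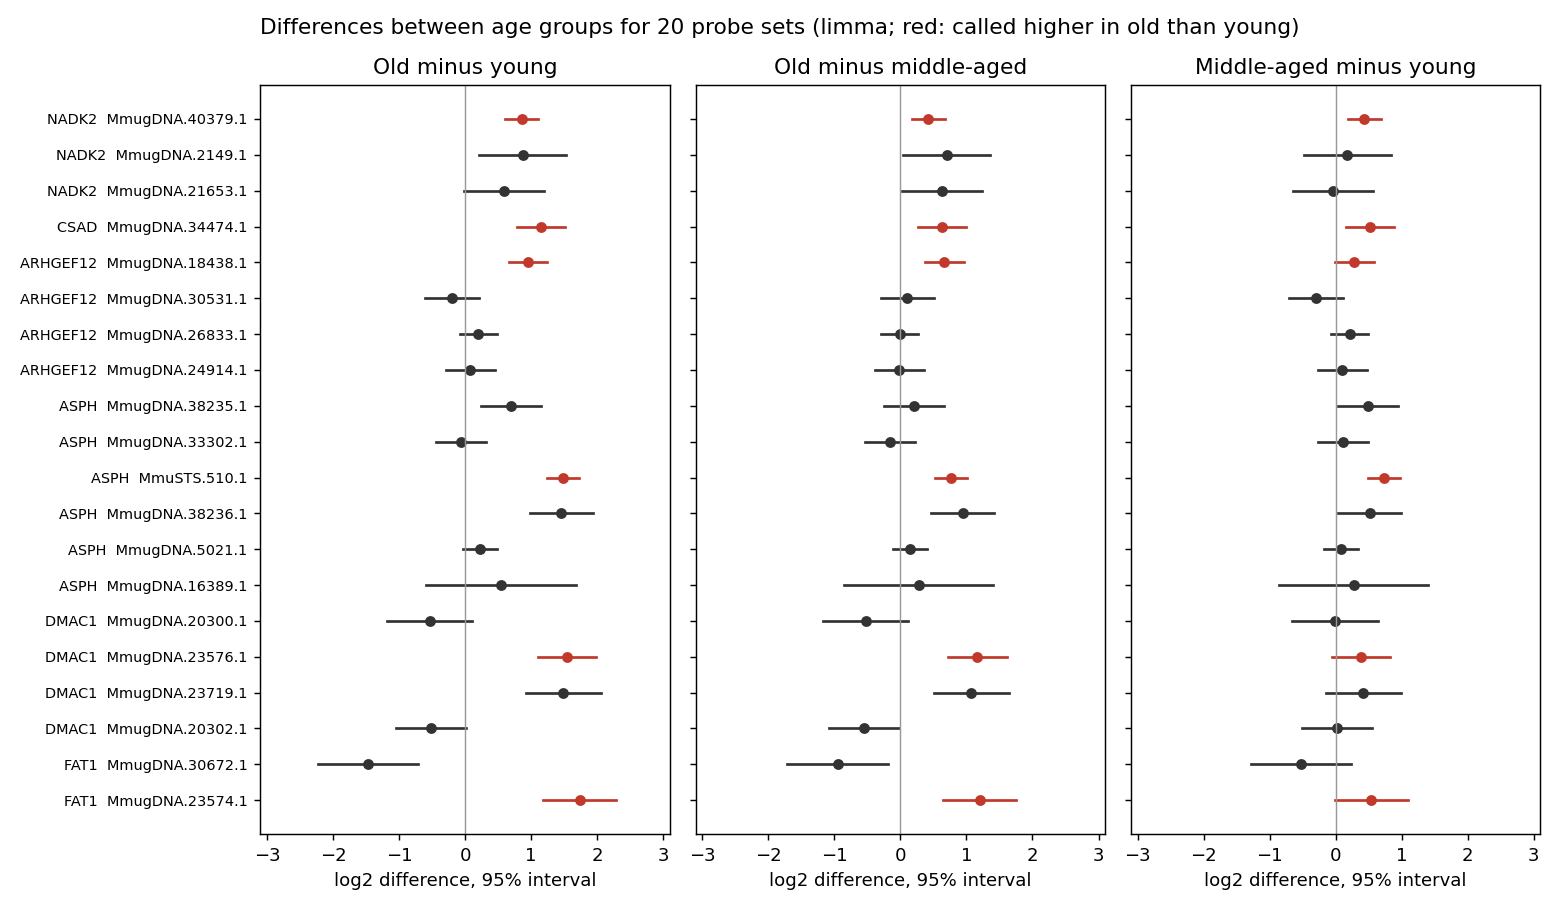
Log2 difference of old from young (left), old from middle-aged (middle) and middle-aged from young (right) ovaries for each of the 20 probe sets, grouped by gene, with 95% intervals from limma. Red points mark the 6 probe sets called between old and young ovaries, which lie at 0.86 to 1.74 in the left panel.

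When the probe sets of a gene were averaged on the log2 scale, which leaves the single probe set of CSAD as it was, the difference of old from young ovaries was 0.77 for NADK2, 0.73 for ASPH, 0.49 for DMAC1, 0.26 for ARHGEF12 and 0.13 for FAT1. In 3 of the 6 genes the brightest probe set was the called one, namely in NADK2, CSAD and ARHGEF12. In ASPH the brightest probe set went the same way without a call, and in DMAC1 and FAT1 it went the opposite way. Among all same-gene pairs, 9 of 31 correlated negatively, with a median r of 0.46. Among pairs from different genes, 66 of 159 correlated negatively, with a median r of 0.18.

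The called probe sets nearest the limit were those of CSAD and FAT1, both with a limma adjusted p of 0.0497. The nearest uncalled ones were ASPH MmugDNA.38236.1.S1_at at 0.0539 and DMAC1 MmugDNA.23719.1.S1_at at 0.0763. Of the called probe sets, ASPH lay furthest inside at 0.00525. When any 1 of the 9 arrays was left out, the ASPH call was lost only without young ovary 2, while DMAC1 lost its call in 6 of 9 such fits and NADK2, CSAD, ARHGEF12 and FAT1 in 8 of 9. The differences themselves moved less, to 1.45 to 1.52 for ASPH, 1.41 to 1.68 for DMAC1, 0.80 to 0.91 for NADK2, 1.01 to 1.30 for CSAD, 0.84 to 1.05 for ARHGEF12 and 1.52 to 1.98 for FAT1. The calls that held were those without old ovary 1 for CSAD, without old ovary 3 for NADK2, ARHGEF12 and FAT1, and without middle-aged ovary 1, old ovary 2 or old ovary 3 for DMAC1.

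The levels of middle-aged ovaries lay between those of young and old ovaries in all 6 called probe sets. The difference of middle-aged from young ovaries was 0.73 (SE 0.11) for ASPH, 0.54 (SE 0.24) for FAT1, 0.52 (SE 0.16) for CSAD, 0.43 (SE 0.11) for NADK2, 0.38 (SE 0.19) for DMAC1 and 0.28 (SE 0.13) for ARHGEF12. These differences share the young arrays with the contrast on which the genes were chosen, so they are not independent of it. None was called: the adjusted p in limma was 0.541 for ASPH and 1 for the other 5. As a share of the difference between old and young on the log2 scale, the middle-aged step was 50.4% for NADK2, 48.8% for ASPH, 45.3% for CSAD, 31.0% for FAT1, 29.8% for ARHGEF12 and 24.6% for DMAC1.

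Of all 20 probe sets, 16 had a positive estimate between middle-aged and young ovaries, beside 48.3% of all probe sets, and 0 were called in either direction, beside 0% called higher and 0.0019% called lower. In limma, an unadjusted p under 0.05 was found for 1680 of the 52766 probe sets in this comparison. In 6 of the 20 the middle-aged arrays lay above all young arrays (4.43% of all probe sets), and in 5 the full order of young below middle-aged below old held without overlap (0.25%). Those 5 were the called probe sets of NADK2, CSAD, ARHGEF12, ASPH and FAT1. The old and the young arrays took part in the choice of the genes, so nothing is read from these counts. In DMAC1, middle-aged ovary 1 at 452 lay below young ovary 2 at 488.

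Between old and middle-aged ovaries, the called probe sets differed by 1.20 (SE 0.24) for FAT1, 1.17 (SE 0.19) for DMAC1, 0.76 (SE 0.11) for ASPH, 0.67 (SE 0.13) for ARHGEF12, 0.63 (SE 0.16) for CSAD and 0.42 (SE 0.11) for NADK2. This contrast shares the old arrays with the choice of the genes. None of the 20 probe sets was called in limma, beside 0% called higher and 0.0341% called lower over the array, where the unadjusted p was under 0.05 for 4152. The estimate was positive in 14 of 20 probe sets, against 53.2% of all.

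The 6 genes were chosen for the same difference between old and young ovaries, which in part fixes the correlations of their called probe sets over the 9 arrays. NADK2 correlated with ASPH at r = 0.970 and CSAD with ASPH at r = 0.967, and these were the 2 probe sets most like ASPH among all 52765. With the age group means subtracted, CSAD and ASPH kept r = 0.70, while NADK2 and ASPH had r = 0.14. NADK2 and CSAD correlated at r = 0.896 over the arrays and at r = -0.35 around the group means.

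The genes most like each member were ranked among 9800 named genes, each represented by its brightest probe set if above the median level. Other probe sets of the array could lie closer, as the DMAC1 probe sets did for FAT1, IHO1 for DMAC1, ARHGDIB and ASPH for CSAD, FAAP20 for ASPH and ASPH for the called NADK2 probe set, names given after their values were seen. Under this limit, for FAT1 and DMAC1 the highest was FADS2, a fatty acid desaturase, at r = 0.965 and 0.958, followed by ZNF446, a zinc finger protein, at 0.951 and 0.943, and ARHGEF12 at 0.946 and 0.942. FADS2 read 127, 190.3 and 127 in young, 156, 188 and 169 in middle-aged and 735, 663 and 328 in old ovaries, and it was not called (1.90, SE 0.30, adjusted p = 0.0735 in limma). For ARHGEF12 the highest were MRAP, the accessory protein of melanocortin receptors (r = 0.964), FADS2 (0.962) and AVPI1 (0.961). Old ovaries 1, 2 and 3 stood in the same order in ARHGEF12, MRAP and FADS2.

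Under the same limit to brightest probe sets, CSAD was most like RHOQ (r = 0.960), DPP8, a cytosolic dipeptidyl peptidase (0.952), and ESYT1, an endoplasmic reticulum tether (0.947). ASPH was most like NADK2, CSAD and TBKBP1, an adaptor of the kinase TBK1 (0.953). Of the NADK2 probe sets, MmugDNA.2149.1.S1_at had the largest difference. It was most like ACBD5, a peroxisomal tether (0.988), CHDH, choline dehydrogenase (0.978), and INHA, the inhibin alpha subunit (0.977). INHA read 6349.6, 2375 and 522 in old ovaries against 136 to 533 in the other 6 arrays. The called NADK2 probe set gave other names, CCDC85B (0.954), TRMT61B (0.947) and ARHGEF12 (0.943), a choice of probe set made after its values were seen.

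Paralogs of the members were taken at their brightest probe set, whatever they showed. NADK, the cytosolic NAD kinase, differed by 0.19 (SE 0.22) between old and young ovaries, GADL1, a relative of CSAD, by -0.16 (SE 0.12), and ASPHD1 by 0.22 (SE 0.13). The other RGS-containing RhoA exchange factors, ARHGEF1 and ARHGEF11, differed by 0.45 (SE 0.13) and 0.24 (SE 0.17). ARHGEF1 read 216, 211 and 204 in old ovaries, above the 144 to 188 of the other 6 arrays. FAT2 and FAT4 differed by -0.21 (SE 0.20) and -0.29 (SE 0.36), and DMAC2 by -0.11 (SE 0.14). None was called, and the smallest adjusted p in limma was 0.215, for ARHGEF1. ASPHD2 and FAT3 have no probe set with their symbol. GADL1, ASPHD1 and FAT2 lay below the median of all probe sets on all 9 arrays, so whether they measured the transcript is not known.

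The pathways around the 6 genes held no called gene. Lists of 7 pathways named 181 genes besides the members, of which 138 were measured. Of these, 0 were called in any of the 3 comparisons in limma, and 27 (19.6%) had an unadjusted p under 0.05 between old and young ovaries, beside 13.5% of all probe sets. The old arrays lay above all other 6 in 6 of the 138 genes, or 4.35%, beside 2.45% of all probe sets. These 6 were NNMT, ARHGEF1, RHOC, NOTCH4, STIM1 and TIMMDC1. The list genes were each taken at their brightest probe set, whereas the 13.5% and 2.45% cover all probe sets, many without a symbol. The shares thus rest on unlike sets, and no excess is read from them. The 3 genes with the smallest p of each list are named below with their difference of old from young ovaries, and none of these differences was called.

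**Figure D4:**
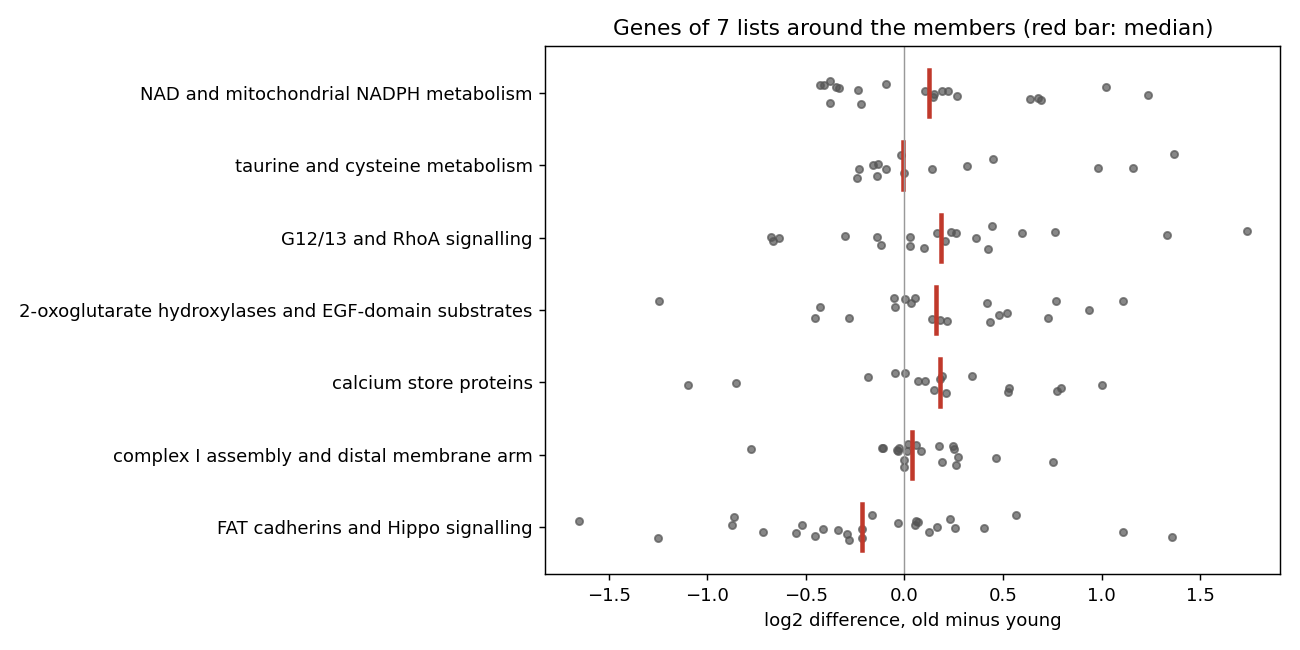
Log2 difference of old from young ovaries for each measured gene of the 7 pathway lists, with 1 row per list. Each point is a gene and the vertical mark is the list median, which lies between -0.21 and 0.19. No gene of these lists was called.

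Around NADK2, the list of NAD and mitochondrial NADPH metabolism had 11 positive and 9 negative estimates among 20 genes, with a median of 0.12. GLUD1, mitochondrial glutamate dehydrogenase, read 386, 205 and 219.9 in old against 86.9 to 160.2 in young ovaries (1.24, SE 0.29, adjusted p = 0.147 in limma). NAPRT, of the nicotinic acid route to NAD, differed by -0.38 (SE 0.12) and NNMT, which methylates nicotinamide, by 0.64 (SE 0.20). Around CSAD, taurine and cysteine metabolism had 6 positive and 8 negative estimates among 14 genes, with a median of -0.01. The taurine transporter SLC6A6 differed by 1.16 (SE 0.41), the sulfide oxidase SQOR by 0.98 (SE 0.38) and the cystine exchanger SLC7A11 by 1.37 (SE 0.62). SLC6A6 read 84.7, 32.7 and 24.1 in old ovaries, and the last overlapped the middle-aged arrays.

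Around ARHGEF12, the list of G12/13 and RhoA signalling had 14 positive and 6 negative estimates among 20 genes, with a median of 0.19. MYL9, the myosin light chain of smooth muscle, read 2399, 2150.5 and 1942 in young, 3592, 3408 and 5254 in middle-aged and 5144, 4502 and 6891 in old ovaries (1.33, SE 0.21, adjusted p = 0.0735 in limma). All old and all middle-aged arrays of MYL9 were above all young arrays. The GTPase RHOC differed by 0.76 (SE 0.18) and SEMA4D, a plexin ligand, by -0.63 (SE 0.19).

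Around ASPH, the list of 2-oxoglutarate hydroxylases and EGF-domain substrates had 14 positive and 6 negative estimates among 20 genes, with a median of 0.16. The substrate-type receptor NOTCH4 differed by 1.11 (SE 0.35) and the Notch ligand DLL4 by 0.77 (SE 0.26), while the collagen prolyl hydroxylase P4HA2 differed by -1.24 (SE 0.40). Calcium store proteins had 13 positive and 4 negative estimates among 17 genes, with a median of 0.18. STIM1, the store calcium sensor, read 225, 140.1 and 146 in old ovaries against 92.9 to 114 in the other 6 (0.77, SE 0.17, adjusted p = 0.134 in limma). The pump ATP2A2 differed by 0.53 (SE 0.18) and the channel ITPR1 by 1.00 (SE 0.39).

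Around DMAC1, the complex I assembly and distal membrane arm list had 12 positive and 8 negative estimates among 20 genes, with a median of 0.04. The assembly factors COA1, TIMMDC1 and NDUFAF3 differed by -0.78 (SE 0.21), 0.75 (SE 0.23) and 0.46 (SE 0.17), so that they too went both ways. Around FAT1, the list of FAT cadherins and Hippo signalling had 11 positive and 16 negative estimates among 27 genes, with a median of -0.21. WWC1, an upstream Hippo scaffold, differed by -1.65 (SE 0.44), the kinase LATS1 by -0.45 (SE 0.14) and EVL, an actin regulator, by -0.87 (SE 0.29). LATS1 read 955, 1141 and 886 in old ovaries, below all other 6 arrays. The median over all genes with 1 probe set each was -0.0046.

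Markers of other ovarian cell types differed between the age groups too, and their part in the results was not tested. Summed over 6 of 9 listed oocyte markers, the intensity was 1934 to 6569 in young, 1040.5 to 4595 in middle-aged and 110.3 to 122 in old ovaries, and 4 of these markers were called lower in old ovaries. No marker of another cell type was called. The summed markers of steroid-making cells (3 of 6 listed) were 982 to 3861, 984 to 5102 and 5913 to 24103 in the same order, but they did not move together. STAR, the cholesterol transporter of mitochondria, carried the sum at 21679, 12233 and 3448 in old ovaries, while HSD3B2 differed by 0.12 (SE 1.12) and CYP17A1 by 1.31 (SE 1.08) between old and young. Granulosa cell markers (4 of 6) went both ways, with AMH, the hormone of growing follicles, at -3.88 (SE 0.97) and INHA and INHBA at 2.67 (SE 0.89) and 1.89 (SE 0.66).

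Endothelial markers (7 of 7) summed to 1834 to 2524 in young, 2436 to 5305 in middle-aged and 2415 to 10197 in old ovaries. Surface epithelium markers (7 of 7) summed to 2788 to 4713, 1696 to 2480.0 and 1158 to 1851, and smooth muscle markers (4 of 8) to 4165 to 5024, 6734 to 13551 and 3828 to 19106. Stromal markers (5 of 6) summed to 15308 to 17439 in young, 19203 to 32618 in middle-aged and 12486 to 25058 in old ovaries. Immune markers (4 of 6) summed to 497 to 738, 323 to 920 and 602 to 796 in the same order. Fat cell markers (3 of 4) summed to 633 to 676, 742 to 1014 and 541 to 11584, and FABP4 alone read 11079 on old ovary 3. Array medians lay between 24.2 and 25.8. Young ovary 3 and old ovary 3 stood apart in their poly-A spike controls, by 0.67 and 0.78 on the log2 scale against -0.42 to 0.03 on the other 7 arrays. On arrays numbered 1, the 3' end of the GAPDH control exceeded its 5' end by 1.64 to 1.77 on the log2 scale. It did so by 1.86 to 2.11 on those numbered 2 and by 2.22 to 2.36 on those numbered 3. The part of this control in the order of the old arrays was not tested.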

How the data were processed

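Per the labels, the authors hybridised ovarian RNA to one-colour Affymetrix rhesus arrays and used RMA; the values as deposited are 1 linear intensity per probe set and array. The methods section instead describes LOWESS normalisation, so the route from scan to intensity rests on the labels. Genome build, detection calls, scan batches and depth are not given in the sources used here, and the number of arrays limits the precision. The file holds 52865 probe sets. The 99 controls were left out and the other 52766 taken to log2 without further normalisation. Symbols came from the platform annotation, which gives 1 symbol to 24956 probe sets, several to 361 and none to 27449. No symbol needed an update through its Entrez number. No sequences are shown.

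limma (version 3.58.1) in R (version 4.3.3) modelled the 3 age groups on all 9 arrays, with empirical Bayes variances and Benjamini-Hochberg adjustment over all 52766 probe sets. Calls were made below an adjusted p of 0.05 and at folds of 1.5 or more. The script was tested on simulated data. The members and the gene lists were chosen with earlier results of these data known. A gene of a list is represented by its brightest probe set. Named were all members, their paralogs, the 3 genes with the smallest p of each list and the 3 genes most like each member by Pearson r. The SAM test of the study was not run. Alternatives were centring, quantile normalisation, array weights, trend and robust variances, brighter probe sets alone, the compared groups alone, a replicate block, 1 or the average probe set per gene, and leaving out arrays.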

Additional observations from a re-analysis of the deposited data

How the results depend on the processing

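The sign of each called probe set held under all 17 alternatives that fit each probe set by itself, but none of the calls held under all of them. This does not cover the choice of probe set. At the brightest probe set, the difference of old from young ovaries was -0.54 for DMAC1 and -1.47 for FAT1, opposite to the called probe sets. The ASPH call was lost without young ovary 2 and without the 3 arrays numbered 3, and kept in 15 alternatives. The calls of DMAC1, ARHGEF12, NADK2, CSAD and FAT1 were kept in 9, 6, 5, 5 and 4. Of the 6 genes, 2 were called with trend and robust variances, 1 with only the old and young arrays fitted, 0 without the arrays numbered 3, 3 by the brightest probe set and 1 by averaged probe sets, and from 0 (without young ovary 2) to 5 (without old ovary 3) with 1 array left out. Over all probe sets, 82 differed between old and young ovaries, with 27 in the fit of those groups alone, 2 without the arrays numbered 3 and from 4 (without young ovary 2) to 198 (without old ovary 2) with 1 array left out. Between old and middle-aged ovaries there were 18, with 9 after centring the arrays, 5 in the fit of those groups alone, 2 without the arrays numbered 3 and from 1 (without middle-aged ovary 3) to 42 (without old ovary 3) with 1 left out. Between middle-aged and young ovaries there was 1, with 0 without the arrays numbered 3 and from 0 to 1 with 1 array left out. In the pathway lists from 0 to 1 gene was called, DLL1 without old ovary 2 (1.65, adjusted p = 0.0259 in limma). The cause of these shifts was not tested. With the replicate number as a block, 229 probe sets were called between old and young and 28 between old and middle-aged ovaries, and 5 of the 6 genes, all but NADK2. The labels give no pairing by number, although the difference between the ends of the GAPDH control rose with it in each age group. Same-numbered arrays correlated in their deviations from the group means from -0.025 to 0.41, and from 0.25 to 0.41 among the arrays numbered 3, against -0.42 to 0.25 between arrays of different number, so not every pair was above 0.1 and the arrays were treated as unpaired. Of the 20 probe sets, 2 dim or level ones, ARHGEF12 MmugDNA.24914.1.S1_at and ASPH MmugDNA.33302.1.S1_at, changed sign between old and young in some alternative, and neither was called.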
